A study of Homo sapiens with 6 samples.

Results

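The regions described here were chosen from ATAC-seq peak lists of K562, an established human leukaemia line, for an interval in the wild-type SLFN11 camptothecin library and in none of the other vector and wild-type SLFN11 lists. ATAC-seq marks open chromatin as sites where a transposase can insert sequencing adapters. The series holds 3 gene-modified K562 lines, one overexpressing wild-type SLFN11, one overexpressing SLFN11 with the E669Q substitution and one carrying the vector control. Each line was given 1000 nM camptothecin (CPT) for 4 h or DMSO, with 1 library per line and treatment, so no difference below has a replicate check. The sources used here do not give how the lines were derived, whether each is 1 clone, or how long DMSO was applied. Overlapping intervals of all 6 lists on chromosomes 1 to 22 were merged into 16888 regions. Of these, 554 held an interval of the wild-type SLFN11 CPT list and none of the wild-type SLFN11 DMSO, vector CPT or vector DMSO lists. They are called WT-CPT regions below. They were split by presence in the E669Q lists, which entered the merging but not the condition on presence: 85 were in both E669Q lists, 124 in the E669Q CPT list alone, 28 in the E669Q DMSO list alone and 317 in neither.

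SLFN11 is a nuclear protein of the Schlafen family that is recruited to stressed replication forks and sensitises cells to drugs that damage DNA during replication. Its C-terminal part resembles a helicase, and E669Q changes the Walker B motif that such proteins use to hydrolyse ATP. CPT traps topoisomerase I on DNA after it has cut one strand, so that forks run into the trapped complex. Open chromatin in dividing cells is found mostly at promoters and enhancers, where nucleosomes are displaced, and chromatin at stalled forks can also lose nucleosomes.

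Being called in 1 list and in none of 3 others is not a feature of the wild-type SLFN11 CPT library alone. The WT-CPT regions made up 10.4% of the 5328 regions of their list. Turned to the other lists, the same rule gave 4081 of 11065 regions for wild-type SLFN11 DMSO (36.9%), 616 of 5561 for vector CPT (11.1%) and 553 of 5035 for vector DMSO (11%). The count in the wild-type SLFN11 CPT list therefore lay beside those of both vector lists, and the choice by itself does not show that CPT opened the 554 regions. Depth recovered from the deposited values, relative to the vector DMSO library, was 1.09 in wild-type SLFN11 CPT, 1.72 in wild-type SLFN11 DMSO, 2.22 in E669Q CPT, 1.34 in E669Q DMSO and 1.09 in vector CPT. The 3 lists compared at nearly equal depth thus gave nearly equal shares, and the deeper wild-type SLFN11 DMSO library gave the larger one. With all 6 lists shortened to their 5091 strongest intervals, the numbers held alone were 1067 for wild-type SLFN11 CPT, 810 for wild-type SLFN11 DMSO, 991 for vector CPT and 1092 for vector DMSO.

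The WT-CPT regions were weak members of their list. Because the choice used this list, the following values describe the regions and carry no test. The authors' fold enrichment at the summit, a ratio over local background, had a median of 4.87 (quartiles 4.35 and 5.66, highest 8.51), and 6.08 (5.21 and 7.08) in the other 4774 regions of the list. The summit pileup, the number of fragments over the summit recovered from fold and −log10 p, had a median of 6 in WT-CPT regions and 9 in the other regions. A pileup of 6 or fewer was found in 333 of 554 WT-CPT regions (60.1%) and in 855 of 4774 others (17.9%). The median −log10 q was 3.16 and 4.99, and 118 WT-CPT regions lay within 0.1 of 2.00, the lowest value the list holds. Intervals were also narrower, with a median of 177 bp (quartiles 148 and 224) against 252 bp (183 and 357), and 160 of the 554 (28.9%) were 150 bp wide or less. No WT-CPT region had more than 1 summit, against 324 of the 4774 others (6.79%).

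The regions that one vector list held alone were of similar pileup and width. In vector CPT alone the median fold was 5.31, the median pileup 6 fragments and the median width 172 bp. In vector DMSO alone these were 4.92, 6 and 183 bp. By −log10 q the WT-CPT regions lay near vector DMSO alone and under vector CPT alone: a value of at least 5 was reached by 12.3% of WT-CPT regions, 22.7% of vector CPT alone and 9.76% of vector DMSO alone, and a value below 2.5 was found in 34.1%, 13.1% and 31.3%. The lowest pileup was 4 fragments in the WT-CPT and vector DMSO sets and 5 in the vector CPT set. Scaled to the background of vector CPT, 445 of the 554 WT-CPT regions (80.3%) would have passed the lowest −log10 p of that list. For vector DMSO this was 551 (99.5%). Scaled pileups were rounded to whole fragments, so a pileup of 4 stayed 4 in both cases while the background changed. Both shares thus depend on this rounding and do not measure depth alone. The part of the lowest pileups and of the limits on −log10 p in the difference in −log10 q was not tested. Small, single-summit intervals were found in the sets of all 3 of these lists.

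WT-CPT regions that recurred in the E669Q line were stronger than those that did not. The median fold in the wild-type SLFN11 CPT list was 5.39 for regions in both E669Q lists, 5.24 for those in the E669Q CPT list alone, 5.31 for those in the E669Q DMSO list alone and 4.60 for those in neither. The median −log10 q was 3.79, 3.44, 3.62 and 2.65 in the same order. Regions within 0.1 of the lowest −log10 q made up 100 of the 317 in neither list (31.5%, 95% interval 26.5 to 37.0), against 7 of 85 in both lists (8.24%, 3.38 to 16.2) and 10 of 124 in the E669Q CPT list alone (8.06%, 3.94 to 14.3). Intervals of shares here and below are exact Clopper-Pearson intervals, which cover counting error and treat regions as independent.

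**Figure D1:**
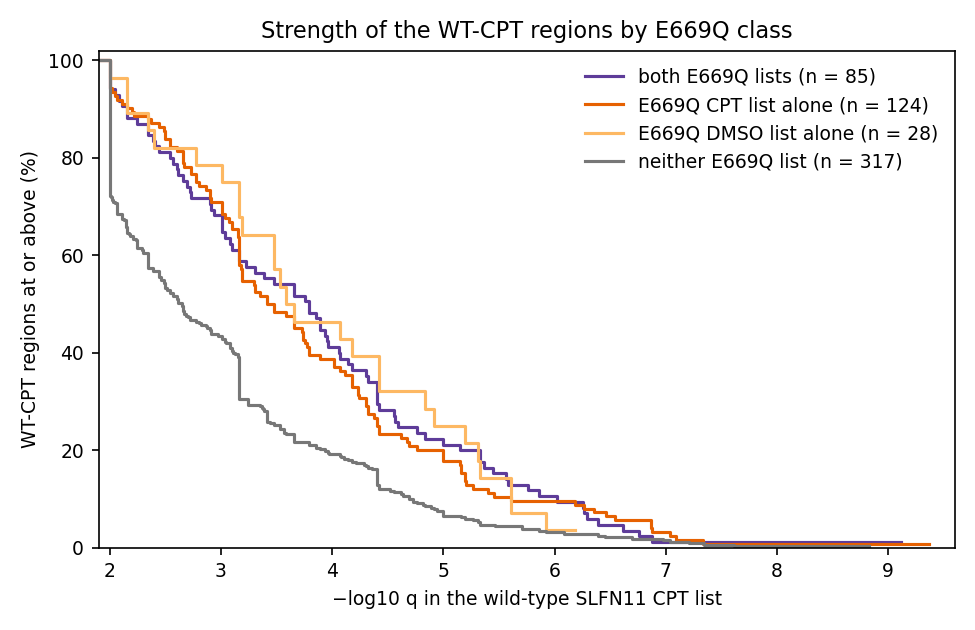
Share of WT-CPT regions (vertical axis, %) whose −log10 q in the wild-type SLFN11 CPT list was at or above the value on the horizontal axis, drawn for the 4 classes by presence in the E669Q lists. The curve of the 317 regions in neither E669Q list drops at once, with 100 of them within 0.1 of the lowest value, and the other 3 curves lie close together above it.

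Among the WT-CPT regions in both E669Q lists, the strongest by −log10 q lay on chromosome 12 from 50017123 to 50017447 (hg19, as are all positions here). Its fold was 8.50 in wild-type SLFN11 CPT, 5.58 in E669Q CPT and 6.11 in E669Q DMSO, from pileups of 12, 9 and 7 fragments. The next was on chromosome 9 from 133741914 to 133742171, with folds of 6.85, 4.40 and 6.44 in the same libraries. Both regions thus had a higher fold in E669Q with DMSO than with CPT. The next, on chromosome 3 from 186500931 to 186501374, had folds of 7.15, 4.11 and 5.74. The last of these 4, on chromosome 7 from 149807521 to 149807837, was larger in the E669Q line than in wild-type SLFN11 CPT, with 7.20, 9.64 and 14.8 and pileups of 9, 18 and 27 fragments. In these 4 regions, then, the E669Q fold was higher without the drug. That none of the 4 was called in wild-type SLFN11 DMSO or in either vector library follows from the rule. A place without an interval has no value in the lists, so its level there is not known beyond lying under the call.

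The strongest WT-CPT regions in the E669Q CPT list alone lay on chromosomes 17, 7, 16 and 20. The region on chromosome 17 from 80606106 to 80606425 had the highest fold and the highest −log10 q of all 554, 8.51 and 9.37, from 13 fragments. Its fold in E669Q CPT was 4.31, from 8 fragments. The region on chromosome 7 from 99716913 to 99717220 had folds of 7.60 in wild-type SLFN11 CPT and 5.46 in E669Q CPT. For the chromosome 16 region, 12514626 to 12514972, these were 7.30 and 4.83, and for the chromosome 20 region, 30192994 to 30193278, they were 6.97 and 5.56. All 4 were lower in E669Q CPT than in wild-type SLFN11 CPT, the list in which they had been chosen for their strength.

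The strongest WT-CPT regions in the E669Q DMSO list alone included 2 on chromosome 19. On chromosome 20 from 61557600 to 61558123 the fold was 6.89 in wild-type SLFN11 CPT and 6.22 in E669Q DMSO. On chromosome 19 from 10806461 to 10806702 it was 6.80 and 4.15, and from 41815997 to 41816274 it was 6.60 and 4.38. The region on chromosome 6 from 27570153 to 27570410 was the exception to this order, with 6.60 in wild-type SLFN11 CPT and 7.04 in E669Q DMSO. Since this class holds regions without an E669Q CPT interval, its members were called with the drug in one line and without it in the other.

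Among the 317 regions called in no other library, the strongest lay on chromosome 2 from 92281283 to 92281511, with a fold of 7.47 and a −log10 q of 8.83 from 16 fragments. One on chromosome 21 from 47621066 to 47621380 had a fold of 7.70 from 9 fragments. One on chromosome 19 from 12983860 to 12984287 had 7.38 from 12 fragments, and one on chromosome 10 from 27443320 to 27443497 had 7.44 from 11. The chromosome 10 region lay 649 bp from an interval of one of the lists that lack it, and the chromosome 2 region 5273 bp. The chromosome 21 and chromosome 19 regions lay farther away, at 16394 and 17367 bp.

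The edge of the overlap rule passed through regions of varied strength. The 3 regions just inside it had folds above the WT-CPT median of 4.87. The next nearest, 4 bp away on chromosomes 9 and 19, had folds of 4.06 and 4.63, under that median. The WT-CPT regions nearest to an interval of the lists that lack them were on chromosome 6 from 43737815 to 43737970 (fold 5.61), which touched such an interval without sharing a base, and on chromosomes 10 from 114603404 to 114603545 (5.68) and 18 from 54318525 to 54318920 (7.33), each 3 bp away. Just outside the rule, a region on chromosome 2 from 44588601 to 44589319 (fold 6.14) shared 1 bp with a vector DMSO interval. One on chromosome 2 from 211035254 to 211036477 (4.42) shared 2 bp, and one on chromosome 22 from 18484194 to 18484634 (4.86) shared 3 bp. A further 49 regions of the list were left out because E669Q intervals bridged them to an interval of an excluded list.

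Nearness to such intervals was common. Of the 554 regions, 100 (18.1%, 14.9 to 21.5) lay within 1 kb of an interval of the 3 lists that lack them and 43 within 100 bp. The same share was 7.16% (6.38 to 7.99) for regions of wild-type SLFN11 DMSO alone, 12.2% (9.70 to 15.0) for vector CPT alone and 12.5% (9.84 to 15.5) for vector DMSO alone. The numbers of intervals measured against differed. The wild-type SLFN11 DMSO list, with 11242 intervals, was among them for every set except its own. By class, 75 of the 317 regions in neither E669Q list (23.7%, 19.1 to 28.7) lay within 1 kb, against 8 of 85 in both lists (9.41%, 4.15 to 17.7) and 10 of 124 in the E669Q CPT list alone (8.06%, 3.94 to 14.3). Of the 28 in the E669Q DMSO list alone, 7 did so (25.0%, 10.7 to 44.9). Regions without an interval in the E669Q CPT list were thus more often beside a called interval. The rule can add to this difference, since an E669Q interval that bridged a region to an excluded list removed it, as for 49 regions. How much of the class difference this made was not tested. A shifted edge of a called interval cannot be told apart from a separate site at these places.

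The E669Q lists, whose presence or absence was no condition of the choice, held 42.8% of the WT-CPT regions (38.6 to 47.0). The E669Q CPT list had 209 of the 554 (37.7%, 33.7 to 41.9), where it had 66.2% of the regions found in at least 1 of the 4 vector and wild-type SLFN11 lists. The E669Q DMSO list had 113 (20.4%, 17.1 to 24.0), where it had 50.8% of them. The other regions of the wild-type SLFN11 CPT list, which by the rule recur elsewhere, were found far more often, 92.0% in E669Q CPT and 80.4% in E669Q DMSO. Both shares of WT-CPT regions were thus under the background. This was largely set in advance, since the background includes regions called in several of the 4 lists and the rule admits only regions called in 1.

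The sets that another list held alone are the closer comparison, and the differences in the E669Q CPT list were small under the rule as given. That list held 41.1% of the regions of wild-type SLFN11 DMSO alone, 40.7% of those of vector CPT alone and 32.2% of those of vector DMSO alone. The share of WT-CPT regions minus each of these was −3.42 percentage points (Newcombe 95% interval −7.64 to 0.957), −3.02 points (−8.58 to 2.58) and 5.54 points (−0.0798 to 11.1), and every interval includes 0. In the E669Q DMSO list the differences were −5.72 points (−9.16 to −1.93) from wild-type SLFN11 DMSO alone, 4.16 points (−0.267 to 8.63) from vector CPT alone and 2.50 points (−2.15 to 7.13) from vector DMSO alone. These values depend on the merging, because E669Q intervals that bridge a region to another list remove it. With the E669Q lists left out of the merging, an alternative added after seeing the data, 608 regions met the rule. E669Q CPT held 250 of them (41.1%, 37.2 to 45.2) and E669Q DMSO 146 (24.0%, 20.7 to 27.6). The difference from vector DMSO alone was then 7.04 points (1.53 to 12.5) in E669Q CPT and 5.08 points (0.404 to 9.71) in E669Q DMSO, and that from vector CPT alone was −3.23 points (−8.62 to 2.198) and 6.01 points (1.54 to 10.5). Against wild-type SLFN11 DMSO alone both intervals then included 0, at −1.15 points (−5.27 to 3.08) in E669Q CPT and −2.60 points (−6.09 to 1.19) in E669Q DMSO.

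**Figure D2:**
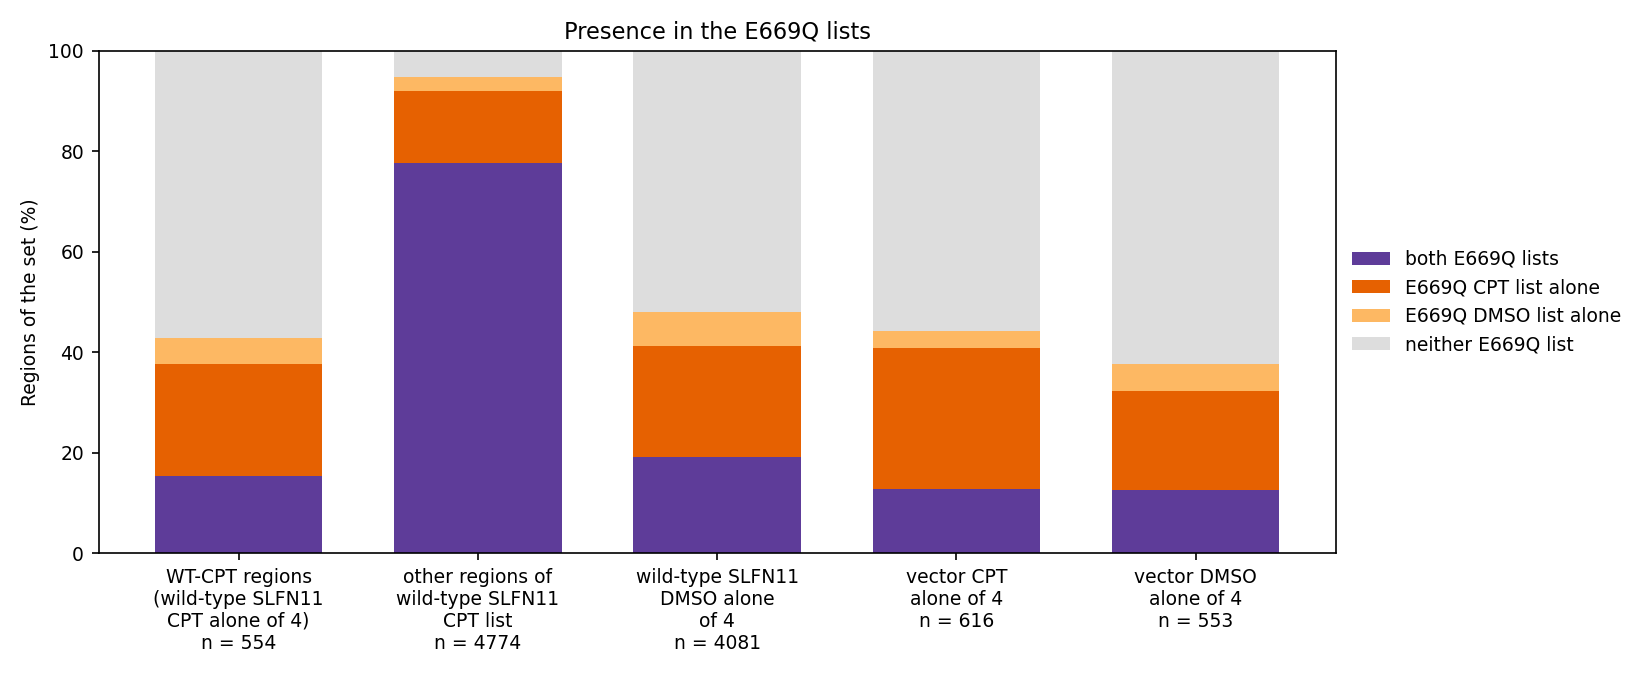
Share of regions (vertical axis, %) found in both E669Q lists, in the E669Q CPT list alone, in the E669Q DMSO list alone or in neither, for WT-CPT regions, the other regions of their list and the sets held by wild-type SLFN11 DMSO, vector CPT or vector DMSO alone of the 4 lists. Neither E669Q list held 57.2% of the WT-CPT regions, 52.0% of the wild-type SLFN11 DMSO set, 55.8% of the vector CPT set and 62.4% of the vector DMSO set, against 5.28% of the other regions.

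Recurrence under the drug was read from the regions found in just 1 of the 2 E669Q lists. Among 152 such WT-CPT regions, 124 were in the CPT list and 28 in the DMSO list, so that CPT held 81.6% (74.5 to 87.4). In the regions of wild-type SLFN11 DMSO alone CPT held 76.0% (73.5 to 78.5), in those of vector CPT alone 89.1% (83.8 to 93.1), in those of vector DMSO alone 78.4% (70.6 to 84.9), and over all regions of the 4 lists 80.6% (79.2 to 82.0). The interval of the WT-CPT regions overlapped each of these, but their share of 81.6% lay under the interval of vector CPT alone. Overlap of intervals does not show that shares are equal, and these differences were not tested. The E669Q CPT library was the deeper of the 2. With its list shortened to the 8114 strongest intervals, the length of the E669Q DMSO list, it held 22.2% of the WT-CPT regions, against 20.2% in E669Q DMSO.

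Recurrence rose with strength. Of WT-CPT regions with a −log10 q from 2 to 3, the E669Q CPT list held 63 of 248 (25.4%, 20.1 to 31.3). From 3 to 4 it held 63 of 149 (42.3%, 34.2 to 50.6), from 4 to 5 it held 43 of 89 (48.3%, 37.6 to 59.2), and from 5 upwards 40 of 68 (58.8%, 46.2 to 70.6). A rise over these bands, from 24.7% to 56.9%, was also seen in the regions of wild-type SLFN11 DMSO alone. In the E669Q DMSO list the share of WT-CPT regions was 13.3% in the lowest band and 36.8% (25.4 to 49.3) in the highest, where it was 39.2% for wild-type SLFN11 DMSO alone, 20.0% (13.7 to 27.6) for vector CPT alone and 22.2% (12.0 to 35.6) for vector DMSO alone. Even the strongest WT-CPT regions recurred less often than the weakest of the other regions of their list. Of the latter, E669Q CPT held 81.5% and E669Q DMSO 62.3%. Those regions were mostly called in a further list by the rule, so this comparison was largely set in advance.

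**Figure D3:**
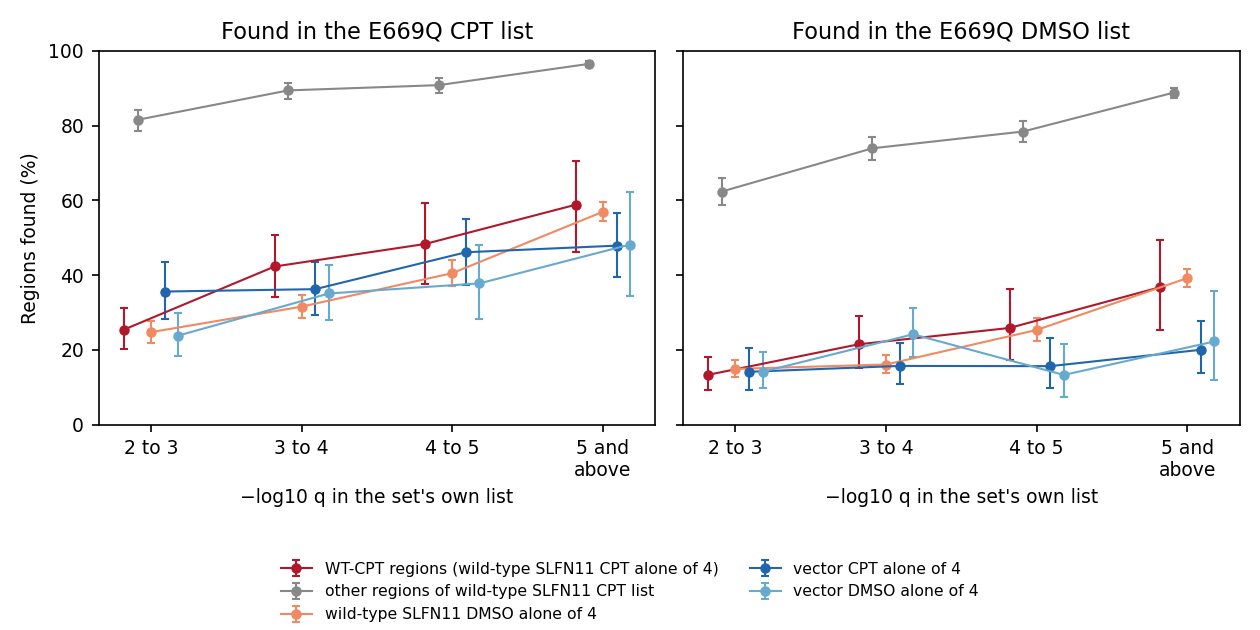
Share of regions found in the E669Q CPT list (left) and the E669Q DMSO list (right), in % on the vertical axis, by band of −log10 q in the list that gave each set; points are shares and bars exact 95% intervals. The WT-CPT regions climb to 58.8% in E669Q CPT and 36.8% in E669Q DMSO among the sets held by 1 list alone, and all 4 such sets lie under the other regions of the wild-type SLFN11 CPT list.

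In the 85 regions found in both E669Q lists, the scaled pileup was lower with the drug and the fold was about even. The median pileup was 11 fragments in E669Q CPT and 8 in E669Q DMSO. Divided by the genome-wide background of its library, the pileup was higher with CPT in 23 of 85 regions, and the median log2 ratio of CPT over DMSO was −0.34 (95% interval from order statistics −0.50 to −0.14). Over the 5955 regions of the 4 lists with pileups in both E669Q libraries the median was −0.24, with 30.1% higher with CPT. The median fold was 6.04 with CPT and 5.91 with DMSO, and 43 of the 85 regions (50.6%) were higher with CPT, against 58.9% over all such regions of the 4 lists. The differences from other regions were not tested.

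Summits of WT-CPT regions mostly lay within 100 bp of those of the E669Q line. The median distance between the summits was 78 bp for the 209 WT-CPT regions in E669Q CPT and 69 bp for the 113 in E669Q DMSO. For the other regions of the list it was 65 and 69 bp, for wild-type SLFN11 DMSO alone 57 and 73 bp, for vector CPT alone 54 and 54.5 bp, and for vector DMSO alone 81 and 84 bp. In E669Q CPT the WT-CPT summits were thus farther off than in all of these sets except vector DMSO alone, and no difference was tested.

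The WT-CPT regions differed from the compared sets in where they lay. Chromosome 17 held the most, 57 of 554 (10.3%, 7.89 to 13.1), ahead of chromosome 1 with 50 and chromosome 19 with 49 (8.84%, 6.62 to 11.5). The other regions of the same list had 3.50% on chromosome 17 and 5.89% on chromosome 19. The regions of wild-type SLFN11 DMSO alone had 4.24% and 4.80%, those of vector CPT alone 1.46% and 0.974%, and those of vector DMSO alone 2.71% and 2.17%. On both chromosomes the interval of the WT-CPT share lay above the share in all of these sets. Among the 317 regions in neither E669Q list this held for chromosome 17 (9.46%, 6.48 to 13.2). For chromosome 19 it did not, with 5.05% (2.91 to 8.07).

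As differences, the chromosome 17 share of the WT-CPT regions exceeded that of the other regions of their list by 6.79 points (4.46 to 9.64), that of wild-type SLFN11 DMSO alone by 6.05 points (3.69 to 8.92), that of vector CPT alone by 8.83 points (6.22 to 11.7) and that of vector DMSO alone by 7.58 points (4.74 to 10.6). For chromosome 19 the differences were 2.96 points (0.754 to 5.69), 4.04 points (1.84 to 6.77), 7.87 points (5.49 to 10.6) and 6.67 points (4.05 to 9.49). In regions found in the E669Q lists alone, chromosome 17 had 3.47% of 3838 and chromosome 19 had 6.85%. The latter lay inside the interval of the WT-CPT share on chromosome 19 (6.62 to 11.5). At matched list length the order was the same, with 8.81% (7.18 to 10.7) of WT-CPT regions on chromosome 17 and 11.3% (9.50 to 13.4) on chromosome 19, against 3.95% and 4.44% for wild-type SLFN11 DMSO alone, 1.82% and 1.41% for vector CPT alone and 2.47% and 2.56% for vector DMSO alone. These intervals carry no adjustment for the 22 chromosomes, and with 1 library per group they do not measure the spread between libraries.

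Chromosomes 12 and 15 were also over-represented. Chromosome 12 held 37 WT-CPT regions (6.68%, 4.75 to 9.09), against 3.06% of the other regions of the list, a difference of 3.62 points (1.75 to 6.05). Chromosome 15 held 24 (4.33%, 2.80 to 6.38), against 1.19%, a difference of 3.14 points (1.69 to 5.19). Against the regions of vector DMSO alone neither interval excluded 0, at 2.34 points (−0.376 to 5.11) for chromosome 12 and 1.26 points (−1.02 to 3.59) for chromosome 15. Against vector CPT alone the interval for chromosome 12 included 0 as well, at 2.13 points (−0.514 to 4.90). In the regions of the E669Q lists alone these chromosomes had 5.86% and 4.40%. Among intervals with a −log10 q of at least 5, the chromosome 15 share was 1.82% of WT-CPT regions (5 of 274), against 2.06% for wild-type SLFN11 DMSO alone, 2.01% for vector CPT alone and 1.75% for vector DMSO alone. Against the other regions of the list at that limit (0.783%) the difference was 1.04 points (−0.101 to 3.44). Chromosomes 1, 2, 6 and 7 were under-represented against the other regions of the list. Chromosome 1 held 9.03% of WT-CPT regions and 12.8% of the others, a difference of −3.75 points (−6.08 to −0.923), and the differences on chromosomes 2, 6 and 7 were −2.70 points (−4.61 to −0.260), −3.09 points (−4.89 to −0.753) and −2.27 points (−3.96 to −0.0336). Against the 3 sets held by another list alone, the intervals for chromosomes 1 and 7 included 0 each time, that for chromosome 2 did so against wild-type SLFN11 DMSO alone, and that for chromosome 6 against vector DMSO alone.

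**Figure D4:**
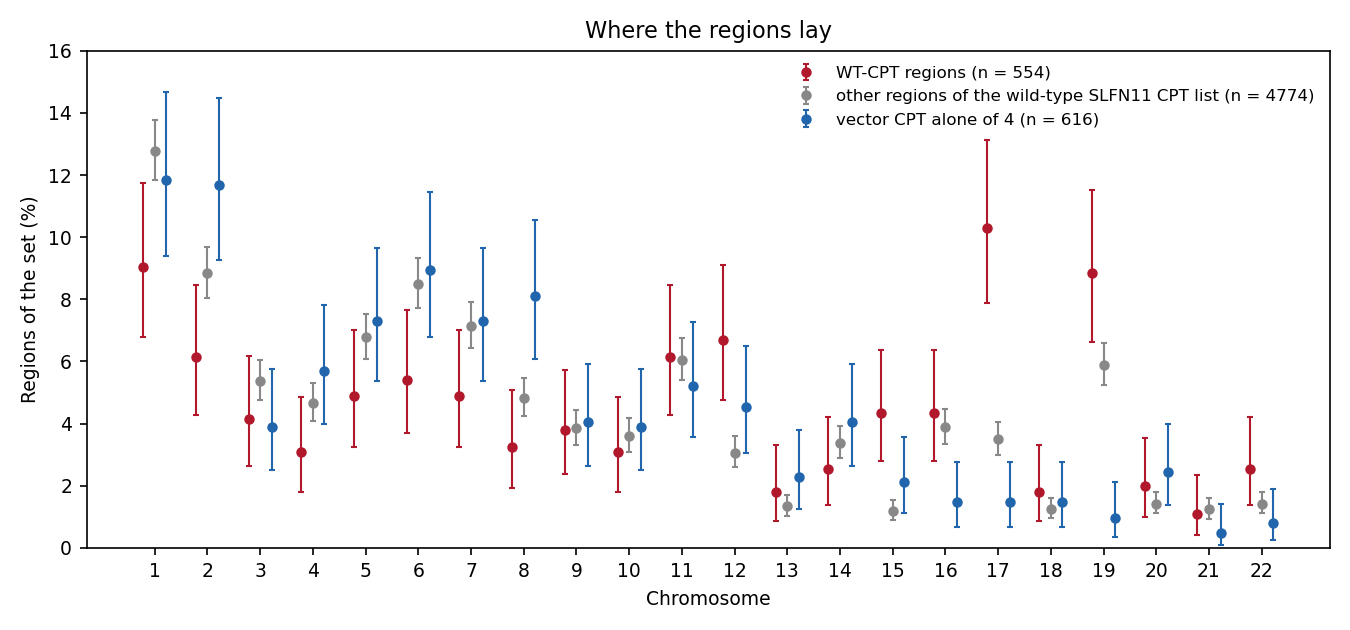
Share of regions on each of the 22 chromosomes (vertical axis, %) for the 554 WT-CPT regions, the 4774 other regions of the wild-type SLFN11 CPT list and the 616 regions of vector CPT alone of the 4 lists; bars are exact 95% intervals. On chromosome 17 the WT-CPT regions reach 10.3%, against 3.50% and 1.46%, and on chromosome 19 they reach 8.84%, against 5.89% and 0.974%.

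Seen from the list, 57 of its 224 regions on chromosome 17 were WT-CPT regions (25.4%, 19.9 to 31.7), 24 of 81 on chromosome 15 (29.6%, 20.0 to 40.8), 37 of 183 on chromosome 12 (20.2%, 14.6 to 26.8), 14 of 82 on chromosome 22 (17.1%, 9.66 to 27.0) and 49 of 330 on chromosome 19 (14.8%, 11.2 to 19.2). On chromosomes 1 to 8 the share was 6.88% to 8.21%. Local background moved with part of this pattern. In the regions that wild-type SLFN11 CPT and DMSO share, the depth-scaled background of 10 kb was higher with CPT, relative to all chromosomes, by 0.45 on the log2 scale on chromosome 19, 0.33 on chromosome 22, 0.32 on chromosome 17 and 0.25 on chromosome 16. It was higher by 0.11 on chromosome 12 and 0.09 on chromosome 15, although WT-CPT regions made up a larger share there than on chromosomes 19, 22 and 16. The share of WT-CPT regions and this change in background ranked together over the 22 chromosomes (Spearman rho = 0.782), as they did with the background of wild-type SLFN11 CPT over vector CPT (0.728). Over vector CPT, the background on chromosome 15 stood at −0.04 relative to all chromosomes. In E669Q CPT over E669Q DMSO it was also higher on chromosomes 17 and 22 (0.19 each) and 19 and 16 (0.15 each). In vector CPT over vector DMSO it was 0.19 on chromosome 19, 0.06 on 17, 0.04 on 16 and −0.02 on 22. The points of both rank relations share 1 library, and the part of the background in the position of the WT-CPT regions was not tested.

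**Figure D5:**
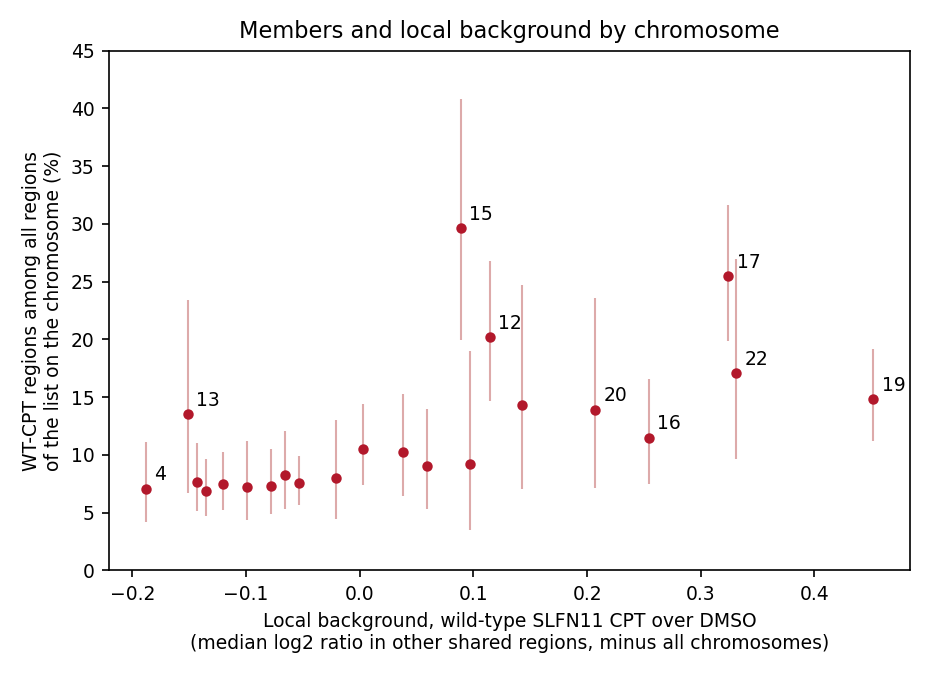
Share of WT-CPT regions among all regions of the wild-type SLFN11 CPT list on a chromosome (vertical axis, %, with exact 95% intervals) against the CPT over DMSO change in local background of the wild-type SLFN11 line (horizontal axis, median log2 ratio in other shared regions, minus the value over all chromosomes), 1 point per chromosome and 9 of them labelled. Chromosomes 15, 17 and 12 hold the largest shares (29.6%, 25.4% and 20.2%), and chromosome 19 the largest rise in background (0.45).

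The most gene-dense chromosomes, which include 17 and 19, together held a raised share. Chromosomes 19, 17, 11, 16, 22 and 20, the 6 with the most protein-coding genes for their length, held 189 of the WT-CPT regions (34.1%, 30.2 to 38.2). They held 22.2% of the other regions of the list, 22.7% of wild-type SLFN11 DMSO alone, 12.3% of vector CPT alone and 14.3% of vector DMSO alone. The difference from the other regions of the list was 12.0 points (7.94 to 16.2). Without chromosomes 17 and 19, the remaining 4 held 83 WT-CPT regions (15.0%), against 12.8% of the other regions, a difference of 2.204 points (−0.695 to 5.55), so most of it lay on those 2. Over all 22 chromosomes the log2 ratio of the WT-CPT share over the share of the other regions ranked with gene density at a Spearman rho of 0.43, and at 0.28 over the 20 without 17 and 19. By class, the share was 41.2% (30.6 to 52.4) for WT-CPT regions in both E669Q lists, 39.5% (30.9 to 48.7) for those in E669Q CPT alone and 30.0% (25.0 to 35.3) for those in neither, so it was above the other regions of the list in regions called in no other library as well. Chromosome 11, although gene-dense, had 6.14% of WT-CPT regions and 6.05% of the others.

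WT-CPT regions on chromosome 19 were more often in both E669Q lists than those on chromosome 17. Of the 49 WT-CPT regions on chromosome 19, 17 were in both E669Q lists (34.7%, 21.7 to 49.6), and 29 were in E669Q CPT and 21 in E669Q DMSO. Of the 57 on chromosome 17, 8 were in both (14.0%, 6.26 to 25.8), and 26 were in E669Q CPT and 9 in E669Q DMSO. The share in both lists was higher on chromosome 19 by 20.7 points (4.35 to 36.2), while for the E669Q CPT list the difference was 13.6 points (−5.35 to 31.1). Chromosome 19 thus made up 20.0% (12.1 to 30.1) of WT-CPT regions in both E669Q lists and 5.05% (2.91 to 8.07) of those in neither, while chromosome 17 made up 9.41% (4.15 to 17.7) and 9.46% (6.48 to 13.2). Of the regions of wild-type SLFN11 DMSO alone, both E669Q lists held 32.7% on chromosome 19 and 12.7% on chromosome 17. Of those of vector DMSO alone they held 1 of 12 on chromosome 19 and 4 of 15 on chromosome 17, and of those of vector CPT alone 2 of 6 and 0 of 9.

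Within chromosome 17 the regions were spread over its length. There were 15 WT-CPT regions from 40 to 50 Mb, 11 from 70 to 80 Mb, 10 from 0 to 10 Mb and 6 each from 30 to 40 and from 50 to 60 Mb. The sets of vector CPT alone and vector DMSO alone had 1 and 2 regions from 40 to 50 Mb, 2 and 1 from 70 to 80 Mb, and 0 and 0 from 0 to 10 Mb. In the same order of places, the other regions of the list numbered 34, 33 and 14. Those of wild-type SLFN11 DMSO alone numbered 29, 36 and 27. On chromosome 19 there were 13 from 10 to 20 Mb, 12 from 40 to 50 Mb, 11 from 0 to 10 Mb and 8 from 50 to 60 Mb. The other regions of the list numbered 61, 59, 75 and 48 there, and those of wild-type SLFN11 DMSO alone 50, 43, 46 and 27. On chromosome 12 the count was highest from 50 to 60 Mb, with 10, where the other regions and wild-type SLFN11 DMSO alone had 21 each.

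Close clusters were few. The 554 regions fell into 447 windows of 1 Mb, of which 361 held 1 region and 18 held 3 or more. The vector CPT set of 616 regions had 8 such windows and the vector DMSO set of 553 had 13. Another WT-CPT region lay within 100 kb of 69 of the 554 (12.5%), where this was 12.5% in the vector CPT set and 8.32% in the vector DMSO set. Of the 18 windows, 6 were on chromosome 17.

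The fullest windows held 4 regions each. On chromosome 17 between 41150252 and 41393409 the 4 had folds of 4.51 to 5.20 and none was in an E669Q list. On chromosome 17 between 1419958 and 1953888 the folds were 4.87 to 5.73, and 3 of the 4 were in E669Q CPT and 1 in E669Q DMSO. On chromosome 16 between 67062675 and 67753531 the folds were 4.24 to 5.33, with 1 of the 4 in E669Q CPT. Neither vector set had a region in these 3 windows, while the set of wild-type SLFN11 DMSO alone had 2, 8 and 6 and the other regions of the list numbered 4, 2 and 9, in the order given. On chromosome 19 all 3 regions between 8070461 and 8478210 recurred in E669Q CPT, with folds of 5.79 to 6.40 in wild-type SLFN11 CPT. Among the windows described here, the one in which all regions recurred also had the highest folds. Higher single folds were found in other windows, as on chromosome 19 from 12 to 13 Mb (7.38, 2 of 3 regions in E669Q CPT). On chromosome 6 from 27 to 28 Mb the highest was 7.07, and none of the 3 was in E669Q CPT.

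A stricter group of 215 WT-CPT regions (38.8%) was described after the values had been seen. These had a −log10 q of at least 3, a merged width over 150 bp and no interval of the excluded lists within 1 kb. E669Q CPT held 129 of them (60.0%, 53.1 to 66.6) and E669Q DMSO 68 (31.6%, 25.5 to 38.3), and 70 were in neither. The merged width includes E669Q intervals, so the limit on width favours regions found in the E669Q lists. The shares in those lists were therefore partly set by the choice. Chromosome 17 held 25 of the 215 (11.6%, 7.67 to 16.7) and chromosome 19 held 31 (14.4%, 10.0 to 19.8). Neither share was lower than among all 554 regions once the weakest regions and those beside another interval were set aside. The chromosome 19 share can also be raised by this choice. That chromosome held 20.0% of WT-CPT regions in both E669Q lists and 5.05% of those in neither. With a −log10 q of at least 5 in every list, the chromosome 17 share was 6.93%, lower than among all 554.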

How the data were processed

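ATAC-seq was made from 6 libraries of K562 cells, grouped by the labels alone. Named in the submitters' processing notes, without roles or settings, are MACS2 2.1.2, Picard 2.9.2, SAMtools 1.8, Bowtie2 2.2.6, Trimmomatic 0.39 and hg19. Read shifting, duplicates and read numbers are not given in the sources used here. Each deposited peak carries the authors' fold enrichment (a ratio over local background), a −log10 p-value, a −log10 q-value, a score that was not used, and a summit offset. Peaks were deposited per library.

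Intervals that shared at least 1 bp were merged, and an interval with several summits was described by the one with the highest −log10 q. A whole summit pileup and a 10 kb background were recovered from fold and −log10 p, on the assumption that MACS2 had added 1 to both, in 99.5% to 99.7% of the entries of a list, within 0.001. Relative depth was the lowest background over the smallest step in background. Merging and pileup recovery were tested on simulated data. With 1 library per group no test between groups was made, and intervals cover counting error only. Named regions were the 4 highest by −log10 q in each E669Q class, windows of 1 Mb with 3 or more members, and the 3 nearest to the rule on each side; not all of the 18 such windows are described. The members, sets and lists were chosen with earlier results of these data known. Alternatives changed the −log10 q limit, the merging distance, the lists merged, the overlap, list length, width and chromosomes. GC content, motifs, genes and gene lists were planned but not analysed here, since no hg19 genome or annotation was used. Gene density was taken from numbers of protein-coding genes in RefSeq for GRCh38.p14, without coordinates, over the largest peak end of a chromosome. The work was done with matplotlib 3.10.9, scipy 1.17.1, pandas 2.3.3, numpy 2.4.6 and Python 3.11.15.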

Additional observations from a re-analysis of the deposited data

How the results depend on the processing

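The number of WT-CPT regions was within 1.5 times of 554 under 6 of 10 alternatives. It was 274 with a −log10 q of at least 5 in every list, 306 with at least 3 in the wild-type SLFN11 CPT list alone, 974 when at least 0.5 of an interval had to be covered to count as found, and 1067 in lists of matched length. At that length the vector CPT list held 991 regions alone and the vector DMSO list 1092. The share found in E669Q CPT was 43.7% and 51.1% with a −log10 q of at least 3 and 5 in every list, 47.7% with at least 3 in the wild-type SLFN11 CPT list alone, 43.3% and 47.2% with intervals within 100 and 1000 bp merged, and 45.7% in regions wider than 150 bp. It was 22.9% in lists of matched length and 22.2% with the E669Q CPT list at the length of the E669Q DMSO list, both of which shorten that list. The share in E669Q DMSO was 25.6%, 28.8% and 26.1% under the 3 limits on −log10 q and 24.9% in regions wider than 150 bp. With the E669Q lists left out of the merging, also added after seeing the data, it was 24.0%. Width here is that of the merged region, which E669Q intervals widen, so the E669Q shares in regions wider than 150 bp were partly set by the choice. The chromosome 19 share was 12.0% with a −log10 q of at least 5 in every list, where that of chromosome 17 was 6.93%, and the cause was not tested. The alternatives for chromosome 17 were added after seeing the data. Under the other 9 it held 8.32% to 11.1%. The median fold was 5.61, 6.68 and 5.59 under the 3 limits, 5.10 under the rule of covered length and 5.38 at matched length. No paired analysis was possible because each group is 1 library. Pileups of the WT-CPT regions had quartiles of 5 and 7 fragments, which limits each single call.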

Other observations

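A few WT-CPT regions lay where local background was very high, so that a large pileup went with a low fold. On chromosome 10 from 42598020 to 42598197 the pileup was 48 fragments and the fold 2.37 in wild-type SLFN11 CPT, with folds of 2.84 in E669Q CPT and 3.16 in E669Q DMSO. On chromosome 16 from 46389651 to 46389790 it was 27 fragments and a fold of 2.92, and on chromosome 2 from 133018900 to 133019058 it was 20 fragments and 3.67. The 10 kb background was 2382, 1039 and 571 fragments at these 3 places, where the median over all WT-CPT regions was 45.

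Chromosome 4 held 17 WT-CPT regions, of which 12 were also in E669Q CPT (70.6%, 44.0 to 89.7) and 8 in E669Q DMSO (47.1%, 23.0 to 72.2). Among regions of wild-type SLFN11 DMSO alone on that chromosome the shares were 55.3% and 40.0%. Adding chromosome X to the rule brought the number of regions to 567.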
